A study of Mus musculus with 14 samples.

Results

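Newborn mouse cortex was sequenced with 2 kinds of RNA library, which are compared here gene by gene. They are 4 polyA-selected libraries of wild type rostral cortex and 2 libraries of total RNA that served as input of an RNA immunoprecipitation (RIP), 6 of the 14 libraries of the series. The libraries were chosen by their labels and not by any measured value. All 6 come from C57BL6/J mice at postnatal day 0.5, and no genetic change is named for them. For the polyA libraries, rostral cortex was flash frozen, RNA came from the Qiagen RNEasy Plus Universal Mini kit, and libraries were made with Illumina TruSeq reagents. For the input libraries, A and B, fresh cortex of 2 pooled neonates per replicate went into the Millipore Magna-RIP procedure, 10% of the lysate was kept as input, and libraries were made with the CloneTech SMARTer Stranded kit. The other 8 libraries were 4 of EMX1-cre Auts2 cKO (conditional knockout) rostral cortex made like the wild type ones, 2 of AUTS2 RIP and 2 of IgG RIP. Emx1 drives Cre in the excitatory lineage and glia of the cortex, so other cells there keep the gene. The kit, the RNA selected, the part of cortex, freezing, lysis and pooling all differ between the 2 library types, so their parts in any difference cannot be told apart.

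PolyA selection captures RNA through the adenosine tail that most messenger RNAs and many long noncoding RNAs carry. RNAs without such a tail, among them small nuclear and nucleolar RNAs, the 7SK and signal recognition particle RNAs and the histone messages of dividing cells, are recovered when total RNA is copied with random primers. Total RNA also holds unspliced precursors in the nucleus, which are a large part of the RNA of long neuronal genes.

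The values are FPKM, fragments scaled by transcript length and by library total, summed over the transcripts of a gene symbol. The summed FPKM of a library ran from 307891 to 338794, read counts are not given, and so the depth of the libraries is unknown. Of 51626 symbols, 14181 had a mean of the 2 group means of at least 1 FPKM, and differences are given only for these. The 2 library types lie in separate tables, and no source used here gives a scaling common to both. Their log2(FPKM + 1) values were therefore quantile-normalized together, and a log2 difference below is input minus polyA on that scale. A gene was counted as higher in one type when the means differed by at least 1, a factor of 2, and no library of one type overlapped the other. No p-value is given, since the tables are separate and the library type is confounded with the points above. Spearman's rho over tested genes was 0.988 to 0.995 between polyA libraries, 0.926 between the inputs and 0.736 to 0.762 between the types. The polyA libraries stood in 2 pairs, 1 with 2 (0.995) and 3 with 4 (0.995), against 0.988 to 0.989 across the pairs.

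By this rule 1754 genes, 12.4% of those tested, were higher in input and 2296 genes, 16.2%, were higher in polyA. All other tested genes were not counted either way. The same rule counted 1 gene higher and 1 lower in cKO than in wild type polyA libraries, 0.00782% each of 12786 genes. The median difference over all tested genes was -0.15. Median-ratio rescaling moved it to 0.05 and turned the balance to 2271 genes higher in input and 1437 higher in polyA, and the deposited values without rescaling gave -0.20, with 1742 and 2414 genes. List and class medians below are therefore to be read against -0.15. Without any filter, over all 51626 symbols, both inputs lay above all 4 polyA libraries for 5778 symbols (11.2%) and below all 4 for 8062 (15.6%), while 23972 were listed at 0 in all 6.

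The small RNAs that set the libraries apart are shown first. Rny1 and Rny3 are Y RNAs, partners of the Ro protein. Rnu11 is the U11 RNA of the minor spliceosome. Snord33 is a box C/D RNA, a guide of ribose methylation, and Snora21 is a box H/ACA RNA, a guide of pseudouridylation. The sequences are GENCODE vM21 transcripts on GRCm38, 5′ to 3′. Capitals mark the terminal TTTT of the Y RNAs, ATTTTTTG in Rnu11, TGATGA and CTGA (boxes C and D) in Snord33 and the ACA near the end of Snora21.
Rny1: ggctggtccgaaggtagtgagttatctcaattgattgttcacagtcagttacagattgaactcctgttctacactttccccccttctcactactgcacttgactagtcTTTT
Rny3: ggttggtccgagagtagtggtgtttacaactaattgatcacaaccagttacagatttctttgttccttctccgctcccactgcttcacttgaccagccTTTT
Rnu11: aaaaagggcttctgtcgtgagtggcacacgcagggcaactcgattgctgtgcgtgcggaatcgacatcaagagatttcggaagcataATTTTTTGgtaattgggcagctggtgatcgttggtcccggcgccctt
Snord33: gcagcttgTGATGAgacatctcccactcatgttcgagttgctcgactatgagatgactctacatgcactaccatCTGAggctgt
Snora21: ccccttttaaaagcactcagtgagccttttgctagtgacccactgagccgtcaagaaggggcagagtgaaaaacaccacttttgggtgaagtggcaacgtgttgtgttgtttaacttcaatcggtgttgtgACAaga
They lie at chr6:47788069-47788180, minus strand; chr6:47781624-47781725, plus strand; chr4:132270080-132270213, minus strand; chr7:45126864-45126947, minus strand; and chr11:97781639-97781775, minus strand. On the sense strand, 516 of 10101 annotated transcripts of at most 300 bases (5.11%) end in TTTT and 45 (0.446%) hold ATTTTTTG. TGATGA within the first 25 bases together with CTGA within the last 15 was found in 68 of 98 Snord transcripts (69.4%), in 0 of 42 Snora transcripts and in 3.14% of all those of at most 300 bases. ACA placed 3 bases before the end was found in 35 of 42 Snora transcripts (83.3%), in 0 of 98 Snord transcripts and in 4.57% of all of at most 300 bases.

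Small structured RNAs were close to absent from the polyA libraries and among the most abundant symbols of the inputs. Rn7sk, the 7SK RNA that holds back the elongation factor P-TEFb, stood at 0.789, 0.666, 0.846 and 0.459 FPKM in polyA libraries 1 to 4 and at 5840.1 and 6438 FPKM in inputs A and B. Its log2 difference, 10.50, was the largest among genes above 0 in every library. Rpph1, the RNA of ribonuclease P, stood at 0.327, 0.864, 0.878 and 0.476 against 2697 and 3445 FPKM. Rmrp, the RNA of the related ribonuclease MRP, stood at 0.385, 0.203, 0 and 0.56 against 2248 and 2757 FPKM. Rny1 stood at 0.932, 1.97, 2.5 and 2.71 against 1408 and 1702 FPKM, and Rny3 at 2.05, 0.541, 0 and 0.496 against 1408 and 1727 FPKM. In all 5 of these RNAs every input library lay above every polyA library. Rn7s1 and Rn7s2, copies of the 7SL RNA of the signal recognition particle, were listed at 0 in all 4 polyA libraries and at 1341 and 1544, and 2167 and 2359 FPKM, in inputs A and B. The copies share sequence, so their split between symbols is uncertain.

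Of the 22 symbols of the small structured RNA list in the tables, 13 had both inputs above all polyA libraries, 0 the reverse and 6 were at 0 in all 6 libraries. The 13 are 59.1% of the list and 81.2% of its members above 0 in some library, against 11.2% and 20.9% of all symbols. Terc, the telomerase RNA, was the lowest of the 13 in the inputs, with 0.123, 0, 0.265 and 0.359 against 5.34 and 5.1 FPKM. The list summed to 4.49 to 5.79 FPKM in polyA libraries and to 19572 and 23066 FPKM in the inputs. FPKM divides by transcript length, so a short RNA takes a larger value than a long message with the same number of fragments.

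**Figure D1:**
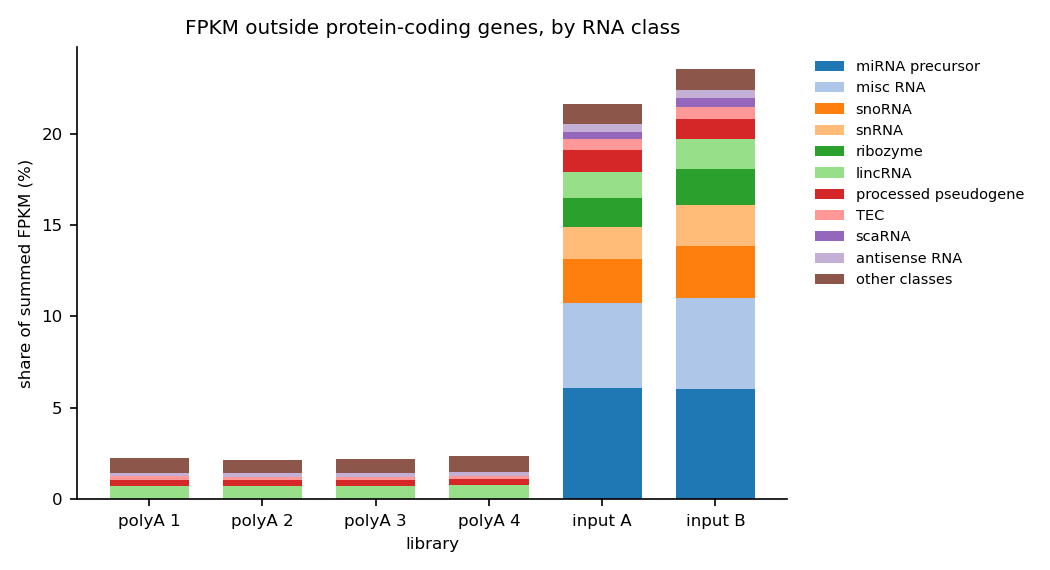
Share of each library's summed FPKM (percent) outside protein-coding genes, stacked by GENCODE gene class, for the 4 polyA and 2 input libraries. The polyA libraries reach 2.16% to 2.34% and the inputs 21.6% and 23.6%, with miRNA precursors, misc RNA, snoRNA, snRNA and ribozymes making up most of the inputs' excess.

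By class, protein-coding genes took 97.7% to 97.8% of the summed FPKM in polyA libraries and 78.4% and 76.4% in the inputs. This share needs no scaling between tables. The miRNA precursor class took 6.1% and 6.02% of the inputs and at most 0.00382% of a polyA library. Nearly all of it was Mir6236, the symbol with the highest FPKM of both inputs, at 3.4, 2.69, 1.82 and 5.35 FPKM in polyA libraries and 18152 and 18371 FPKM in the inputs. The value is listed under the annotated precursor and says nothing of a mature miRNA. Which RNA its fragments came from was not tested. Of 354 annotated ribosomal RNA symbols, 353 were at 0 in all 6 libraries. Exact zeros in these files can be failed estimates, so no level of ribosomal RNA is read from them. The misc RNA class, with 7SK, 7SL and Y RNAs, took 4.64% and 4.99% of the inputs, and the ribozyme class, with Rmrp and Rpph1, 1.61% and 1.97%. In polyA libraries the 2 classes took at most 0.0063% and 0.000337%. Without Mir6236 and Rn7sk the share outside protein-coding genes was 13.8% and 15.7% in the inputs and 2.15% to 2.34% in polyA.

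Small nucleolar RNAs (snoRNAs), which guide the modification of ribosomal RNA and are mostly cut out of the introns of host genes, were seen almost only in the inputs. Of 1483 snoRNA symbols, 1279 were at 0 in all 6 libraries, 135 had both inputs above all polyA libraries and 0 had the reverse. The 135 are 9.1% of the class and 66.2% of its members above 0 in some library, against 11.2% and 20.9% of all symbols. Of the 135, 104 were at 0 in all polyA libraries and so entered the second share through the inputs. This bears on that share here and in the small RNA families below. All 184 snoRNAs that passed the filter had a polyA mean under 1 FPKM, so they passed through the inputs alone. Their median difference of 3.98 was set by that. The class took 2.38% and 2.84% of the summed FPKM of the inputs and 0.00276% to 0.00382% of the polyA libraries. Snord22, a box C/D RNA, was listed at 0 in all polyA libraries and at 753 and 961 FPKM in the inputs. Snora81, a box H/ACA RNA, stood at 0.569, 0, 0 and 0 against 348 and 439 FPKM. Rnu3a, the U3 RNA of pre-ribosomal RNA processing, stood at 0, 0.258, 0 and 0 against 420.0 and 427 FPKM. The inputs lay far above the polyA libraries in each of these. Snord33 and Snora21, printed above, were listed at 0 in polyA and at 91.7 and 135, and at 124 and 142 FPKM, in the inputs.

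Both guide families took part. Of 98 Snord symbols, 29 had both inputs above all polyA libraries and 63 were at 0 in all 6. Of 40 Snora symbols, 31 had both inputs above and 3 were at 0 in all 6. The shares with both inputs above were 29.6% of Snord and 77.5% of Snora symbols. Among members above 0 in some library they were 82.9% and 83.8%, against 20.9% of all such symbols. No member of either family lay the other way. The Cajal body RNAs (scaRNAs), which guide the modification of spliceosomal RNA, did likewise: of 46, 18 had both inputs above, 0 below and 23 were at 0 throughout. The 18 are 39.1% of the scaRNAs and 78.3% of those above 0 in some library. Scarna6 stood at 1.38, 0.208, 0.423 and 0.955 FPKM in polyA libraries and 64.0 and 65.1 FPKM in the inputs, a log2 difference of 5.33. Scarna2 stood at 0, 0.133, 0.135 and 0 against 238 and 215 FPKM. Many of these RNAs lie inside a host gene, and no source used here says if strand entered the counting.

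Among spliceosomal RNAs, too, no symbol had all polyA libraries above both inputs. Of 1383 snRNA symbols, 1157 were at 0 in all libraries, 84 had both inputs above all polyA libraries and 0 below. The 84 are 6.07% of the class, below the 11.2% of all symbols. Among members above 0 in some library they are 37.2%, against 20.9% of all such symbols. Of the 84, 74 were at 0 in all polyA libraries and so entered this share through the inputs, which bears on it. Of the 184 snRNAs that passed the filter, 183 had a polyA mean under 1 FPKM. Rnu11 stood at 0, 0, 0 and 0.378 FPKM in polyA libraries against 755 and 1095 FPKM in the inputs. Rnu12, the U12 RNA that pairs with the branch site of minor introns, was listed at 0 in polyA and at 479 and 648 FPKM in the inputs. The class took 1.75% and 2.28% of the inputs. Input B was above input A in Rnu11, in Rnu12 and in the class as a whole.

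The hosts of snoRNAs were counted as higher in polyA more often than in input, as were all tested genes. Of 16 tested members of the snoRNA host list, 6 (37.5%) were higher in polyA and 2 (12.5%) in input. Over all tested genes the shares were 16.2% and 12.4%. The median difference of the list, -0.28, was near the -0.15 of all tested genes. Gas5, Zfas1, Snhg6, Snhg9, Snhg10 and Snhg15 were the 6. Snhg6 stood at 57.0, 46.4, 42.5 and 44.9 FPKM in polyA libraries and 9.1 and 13.4 FPKM in the inputs. Snhg9 stood at 3.99, 3.92, 3.06 and 1.38 FPKM in polyA and was listed at 0 in both inputs. The 2 higher in input were Snhg20, at 16.5, 16.4, 14.7 and 18.2 against 77.7 and 71.1 FPKM, and Rnu12, which the list also holds. On the deposited values and under median-ratio rescaling 4 and not 6 hosts were higher in polyA.

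Most replication-dependent histone genes were higher in the inputs, and most replication-independent ones were not counted either way. Replication-dependent histone genes are transcribed in dividing cells, and their messages end in a hairpin in place of a polyA tail. Replication-independent variants carry polyA tails. Of 65 replication-dependent genes, 51 had both inputs above all polyA libraries, 2 the reverse and 4 were at 0 in all 6. The 51 are 78.5% of the list and 83.6% of its members above 0 in some library, against 11.2% and 20.9% of all symbols. The 65 genes summed to 67.2 to 91.8 FPKM in polyA libraries and to 1827 and 1835 FPKM in the inputs. Of the 54 that passed the filter, 48 had a polyA mean under 1 FPKM. Their median difference was 3.63, with 50 higher in input and 1, Hist2h2be, higher in polyA. Hist2h2be was not counted on the deposited values nor under median-ratio rescaling. The 11 replication-independent genes summed to 901 to 1189 FPKM in polyA and to 456 and 463 FPKM in the inputs. Their median difference was -0.58, with 3 higher in polyA, 1 higher in input and 7 not counted.

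Hairpins are shown for the replication-dependent genes that stood highest in the inputs among those with a match in the search below. Each is given as 30 bases of the GENCODE vM21 transcript, 5′ to 3′, with the hairpin in capitals. Some of these hairpins lie far from the annotated end of the transcript. The start is base 2526 of 7425 in Hist1h1d, 762 of 1930 in Hist1h1e, 705 of 1560 in Hist1h1c and 353 of 1138 in Hist1h4d. It is base 409 of 470 in Hist1h4h and 448 of 520 in Hist2h2ac. AATAAA was sought at the annotated end and not beside the hairpin.
Hist1h4d: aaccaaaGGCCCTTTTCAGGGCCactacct
Hist1h4h: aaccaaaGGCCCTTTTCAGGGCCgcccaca
Hist1h1e: acccaaaGGCTCTTTTCAGAGCCacccaca
Hist1h1d: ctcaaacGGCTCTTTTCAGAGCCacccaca
Hist2h2ac: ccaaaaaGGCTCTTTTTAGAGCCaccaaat
Hist1h1c: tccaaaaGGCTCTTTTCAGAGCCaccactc
On GRCm38 they lie at chr13:23581943-23581972, plus strand; chr13:23531451-23531480, plus strand; chr13:23621775-23621804, minus strand; chr13:23555780-23555809, plus strand; chr3:96220411-96220440, minus strand; and chr13:23739505-23739534, plus strand. The search was for a perfect stem of 6 base pairs that begins with GG around a loop of 4 bases that begins with TTT, on the sense strand anywhere in an annotated transcript. It matched 42 of 65 replication-dependent genes (64.6%), 1 of 11 replication-independent genes and 26 of 21780 other protein-coding genes (0.119%). AATAAA, the core of the polyadenylation signal, was found within the last 50 bases of a transcript in 23.1%, 90.9% and 68.5% of the same 3 sets. Tested genes with the hairpin numbered 36, with a median difference of 3.41 and 33 higher in input. Those without it numbered 18, with a median of 4.04 and 17 higher in input, so most members of both sets were higher in input.

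Among the members, Hist1h4d, an H4 gene, stood at 0.266, 0.14, 0.427 and 0.257 FPKM in polyA libraries and 158 and 143 FPKM in the inputs, a log2 difference of 6.83. Hist1h4h stood at 0.442, 0.816, 0.237 and 0.535 against 69.3 and 73.0 FPKM (5.62). Hist1h1e, a linker histone, stood at 0.0698, 0.0737, 0 and 0.0676 against 314 and 312 FPKM. The polyA values of these genes were all under 1 FPKM. Hist1h1c, another linker histone, differed in that its polyA values, 9.67, 12.7, 3.62 and 3.79 FPKM, were well above 0, with libraries 1 and 2 above 3 and 4, against 64.1 and 74.7 FPKM. Hist3h2ba stood at 39.6, 48.9, 46.4 and 37.2 against 37.7 and 44.5 FPKM, so the groups overlapped. It supplied most of the summed polyA level of the replication-dependent genes. The histone genes are near-identical copies within a type, so the share of each copy is uncertain.

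Of the variants, H3f3a and H3f3b both encode the replacement histone H3.3. H3f3a stood at 223, 232, 215 and 206 FPKM in polyA libraries and 47.1 and 55.7 FPKM in the inputs, a log2 difference of -1.76. H3f3b stood at 556, 544, 338 and 367 against 147 and 147 FPKM (-1.29), with polyA libraries 1 and 2 above 3 and 4. H2afz, the H2A.Z variant, stood at 88.6, 87.4, 85.0 and 80.6 against 17.7 and 23.3 FPKM (-1.69). The linker variant H1fx went the other way, with 20.6, 24.96, 18.6 and 15.2 against 56.7 and 46.1 FPKM (1.65).

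**Figure D2:**
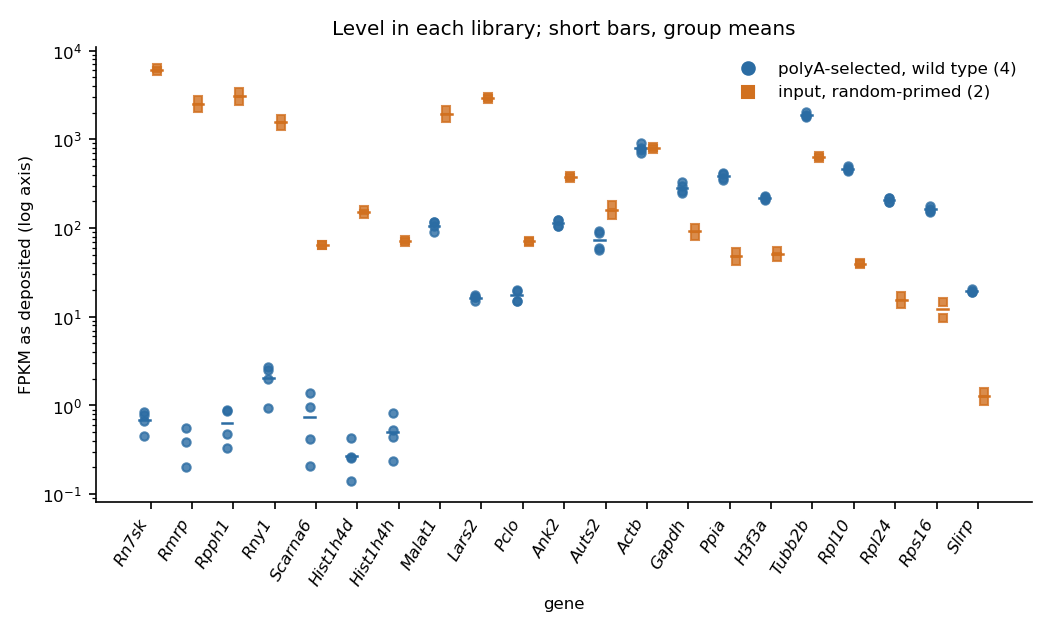
FPKM as deposited (log axis) of 21 genes in the 4 polyA libraries (circles) and 2 inputs (squares), with short bars at the group means. A polyA library in which Rmrp is listed at 0 is not drawn, nor is its mean. The small RNAs and the H4 histone genes lie under 3 FPKM in polyA and above 60 in the inputs, Actb overlaps, and both inputs lie below all polyA libraries from Gapdh to Slirp.

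Among long noncoding RNAs the balance between the library types turned on the scaling, while Malat1 stood far higher in the inputs under each. Of 4792 lincRNA symbols, 212 had both inputs above all polyA libraries and 253 the reverse, and 3046 were at 0 throughout. Among lincRNAs above 0 in some library these are 12.1% and 14.5%, against 20.9% and 29.2% of all such symbols. The 240 lincRNAs that passed the filter had a median difference of -0.09, close to that of all genes, with 43 higher in input and 41 in polyA. On the deposited values the median was 0.13, with 51 and 21 counted, and under median-ratio rescaling 0.34, with 65 and 12. Antisense RNAs had a median of -0.09, with 26 and 21 of 148 counted. These values became 0.25, with 38 and 11, on the deposited values and 0.44, with 47 and 8, under median-ratio rescaling. In the list of 23 tested nuclear or neural long noncoding RNAs, 9 were higher in input and 1, Jpx, in polyA, with a median of 0.86. Jpx was not counted on the deposited values (9 and 0) nor under median-ratio rescaling (12 and 0). The list includes Rmrp, which is no long RNA.

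Malat1, a nuclear RNA of speckles whose mature 3′ end is a triple helix and not a polyA tail, stood at 116, 89.5, 105 and 116 FPKM in polyA libraries and 1759 and 2158 FPKM in the inputs, a log2 difference of 3.57. H19, an imprinted RNA, stood at 3.95, 4.56, 4.28 and 3.32 against 19.1 and 19.5 FPKM (2.184). Meg3 and Rian, imprinted RNAs of another locus, were not counted. Meg3 stood at 331, 305, 355 and 426 against 515 and 641 FPKM, Rian at 359, 348, 432 and 476 against 240.2 and 259 FPKM. Meg3 was thus higher and Rian lower in both inputs than in every polyA library, each by less than the threshold. Neat1, the RNA of paraspeckles, stood at 1.01, 0.586, 1.17 and 0.971 against 2.91 and 2.44 FPKM and was not counted.

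Xist, which coats the inactive X chromosome of females, is polyadenylated. It stood at 0.097, 217, 0.397 and 0.0854 FPKM in polyA libraries 1 to 4 and at 8.56 and 9.92 FPKM in the inputs. The polyA libraries thus lay on both sides of the inputs, with library 2 alone above 1 FPKM, and no call was made. The 4 Y-linked genes of the list were at or near 0 in all 6 libraries and none passed the filter, so they do not tell the libraries apart. The labels do not give the sex of the animals.

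Genes with the longest RNA or the longest span on the genome were counted as higher in input more often than other genes, though most of them were not counted. In the list of giant neuronal genes, 38 of 42 passed the filter, 23 were higher in input and 0 in polyA, with a median difference of 1.13. Pclo, a scaffold of the presynaptic active zone, stood at 15.2, 15.0, 19.5 and 20.1 FPKM in polyA libraries and 72.3 and 70.3 FPKM in the inputs (2.32). Ryr2, a calcium release channel, stood at 6.4, 5.93, 7.53 and 7.73 against 25.3 and 30.5 FPKM (2.10). Kmt2a, a histone H3 methyltransferase, stood at 19.5, 18.7, 18.05 and 18.9 against 58.6 and 65.3 FPKM (2.02). Ank2, an ankyrin that links channels to the spectrin skeleton, stood at 105, 104, 122 and 124 against 389 and 371 FPKM (2.00). Within the list the exceptions were Sptan1 and Celsr3, with differences of -0.21 and -0.12. Auts2, the gene the series was built around, spans 131437333 to 132543344 on the minus strand of chromosome 5. It stood at 87.7, 92.2, 55.9 and 60.2 against 139 and 184 FPKM (1.45), with polyA libraries 1 and 2 above 3 and 4.

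Over all tested genes, the median difference by length of the most abundant transcript was 1.40 up to 500 bases (947 genes, of which 182 are protein-coding), -0.19 from 500 to 1000, -0.55 from 1000 to 2000, -0.33 from 2000 to 4000, 0.04 from 4000 to 8000 and 0.63 above 8000. Short RNAs such as snoRNAs and snRNAs passed the filter almost only through the inputs, which bears on the value up to 500 bases. For protein-coding genes above 0 in some polyA library the values were 0.11, -0.51, -0.63, -0.36, 0.04 and 0.63. Of 622 such genes above 8000 bases, 173 (27.8%) were higher in input and 5 (0.804%) in polyA. Of 2447 genes from 1000 to 2000 bases, 94 (3.84%) and 788 (32.2%) were. Zinc finger genes of the Zfp series, as a family of mid-sized messages, had a median of -0.07, with 20 and 26 of 325, which became 0.21, with 31 and 10, under median-ratio rescaling.

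The span of the gene on the genome, introns included, gave a like order. The median ran from -0.48 up to 3 kb and -0.61 from 3 to 10 kb through -0.42, -0.11 and 0.22 to 0.67 above 300 kb. Above 300 kb, 159 of 494 genes (32.2%) were higher in input and 13 (2.63%) in polyA. Within one range of transcript length the order by span remained: for transcripts of at most 2000 bases the medians were -0.67, -0.25 and 0.16 for spans up to 30 kb, from 30 to 100 kb and above 100 kb, and for transcripts above 4000 bases they were -0.15, 0.05 and 0.45. Across 12115 genes, Spearman's rho with the difference was 0.33 for length, 0.34 for span, -0.11 for GC content and 0.08 for exon number. These correlations are across genes of the same 6 libraries and are given as a description.

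**Figure D3:**
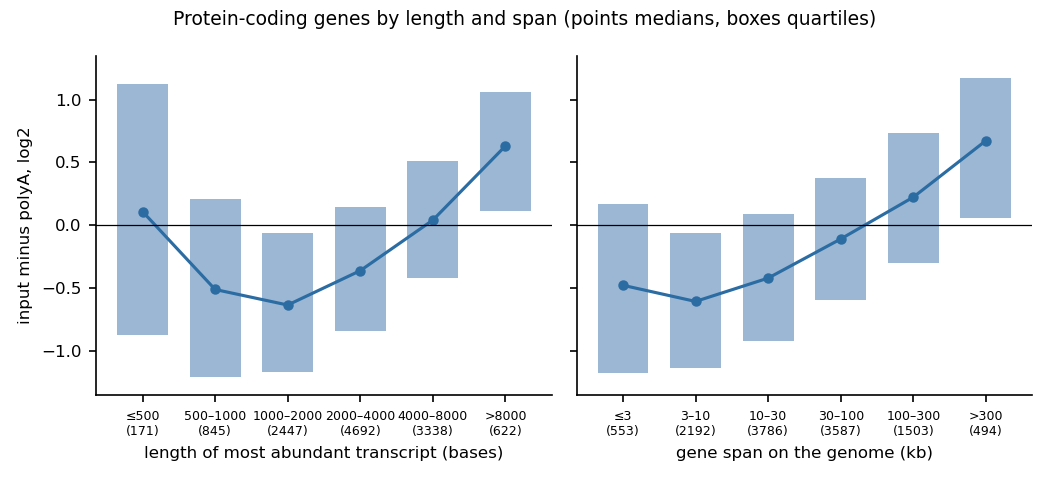
Input minus polyA on the log2 scale for protein-coding genes, in bins of the length of the most abundant transcript (left, bases) and of gene span (right, kb), with the number of genes in brackets. Points are medians and boxes run between the quartiles. The medians are lowest at 1000 to 2000 bases (-0.63) and 3 to 10 kb (-0.61) and highest above 8000 bases (0.63) and 300 kb (0.67).

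Annotated transcripts that keep an intron also took more of the inputs. Among transcripts of protein-coding genes, the retained intron class took 5.69% to 5.92% of the FPKM in polyA libraries and 9.21% and 10.1% in the inputs. Within a gene, over 4293 genes with such a transcript and at least 5 FPKM in every library, the median share was 6.47% to 6.76% in polyA and 11.5% and 12.9% in the inputs. Both inputs lay above all polyA libraries for 1808 genes (42.1%) and below all for 628 (14.6%). Transcripts marked for nonsense-mediated decay took 2.179% to 2.34% and 4.32% and 4.54% of the FPKM of protein-coding genes. Over 2039 genes with such a transcript, its median share was 2.76% to 3.38% in polyA and 0.815% and 0.0253% in the inputs, so the total share and the median share lay in opposite directions. Lars2, whose most abundant transcript is so marked, had a mean of 16.4 FPKM in polyA and 2921 FPKM in the inputs. All protein-coding genes summed to means of 325268 and 240913 FPKM. How far this 1 gene enters the total share was not tested. The files hold isoform estimates over annotated transcripts and no values for introns themselves.

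Lars2, the mitochondrial leucyl-tRNA synthetase on chromosome 9, had the largest level of a protein-coding gene in the inputs. It stood at 17.4, 15.2, 16.6 and 16.5 FPKM in polyA libraries and 2849 and 2993 FPKM in the inputs, a log2 difference of 6.69. Its most abundant transcript is annotated for nonsense-mediated decay. Proser2 stood at 0.356, 0.91, 0.342 and 0.464 against 45.7 and 53.9 FPKM (5.04). Pou4f1, a homeobox factor of sensory and habenular neurons, stood at 0.0599, 0.119, 0.0126 and 0.0114 against 35.4 and 32.4 FPKM (4.92). None of these 3 overlaps another annotated gene. Which RNA the fragments listed under Lars2 came from was not tested.

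In the other direction, the genes that stood highest in polyA against input were mostly short messages of the translation apparatus. Of 83 tested cytosolic ribosomal protein genes, 48 were higher in polyA, 2 in input and 33 were not counted, with a median difference of -1.25. The list summed to 21026 to 24152 FPKM in polyA libraries and 8766 and 9511 FPKM in the inputs. Rpl24 stood at 219, 219, 197 and 199 FPKM in polyA and 13.8 and 17.3 FPKM in the inputs (-3.36). Rps16 stood at 177, 164, 157 and 152 against 14.8 and 9.73 FPKM (-3.36), and Rpl10 at 481, 499.7, 456 and 436 against 40.1 and 39.7 FPKM (-3.28). Every polyA library of these 3 lay above both inputs. The 2 counted higher in input were Rpl13, which is listed at 0 in every polyA library, and Rpl39l, at 0, 0.321, 0 and 0 against 2.81 and 2.62 FPKM. Ribosomal protein genes have many processed copies in the genome, and reads shared with those are not resolved here.

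Slirp, an RNA-binding protein of mitochondria, had the lowest difference of all genes above 0 in every library, with 20.4, 18.8, 19.8 and 18.99 against 1.41 and 1.14 FPKM (-3.62). Rpl22l1, a paralog of Rpl22, stood at 74.6, 78.3, 65.9 and 73.2 against 4.79 and 5.1 FPKM (-3.54). Snrpg, a core protein of spliceosomal particles, stood at 21.8, 21.7, 24.6 and 20.3 against 3.43 and 0.682 FPKM (-3.29), and Sec61b, a subunit of the protein channel of the endoplasmic reticulum, at 36.0, 38.3, 37.9 and 32.3 against 7.02 and 1.28 FPKM (-3.24). In Snrpg and Sec61b the 2 inputs differed from each other by more than the polyA libraries did. Rpl27, Rps21 and Rpl36a had differences of -3.30, -3.27 and -3.24.

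Nuclear genes of mitochondrial proteins followed. Of 78 mitochondrial ribosomal protein genes, 32 were higher in polyA and 0 in input (median -0.86), and they summed to 1390.2 to 1509 FPKM in polyA and 699.5 and 663 FPKM in the inputs. Of 73 oxidative phosphorylation genes, 29 were higher in polyA and 1, Cox4i1, in input (median -0.82). Ndufb3, of complex I, stood at 28.5, 31.0, 28.5 and 27.1 against 3.7 and 1.89 FPKM (-3.14). Uqcrc2, of complex III, stood at 89.5, 86.7, 84.7 and 83.0 against 9.84 and 6.07 FPKM (-3.09), and Cox5a, of complex IV, at 133, 129.6, 125 and 141 against 21.0 and 11.3 FPKM (-2.71). Genes encoded in the mitochondrion itself were listed at or near 0 in all 6 libraries, 35 of the 37 at exactly 0, and none passed the filter. An exact 0 in these files can be a failed estimate, so no level is read from these values.

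**Figure D4:**
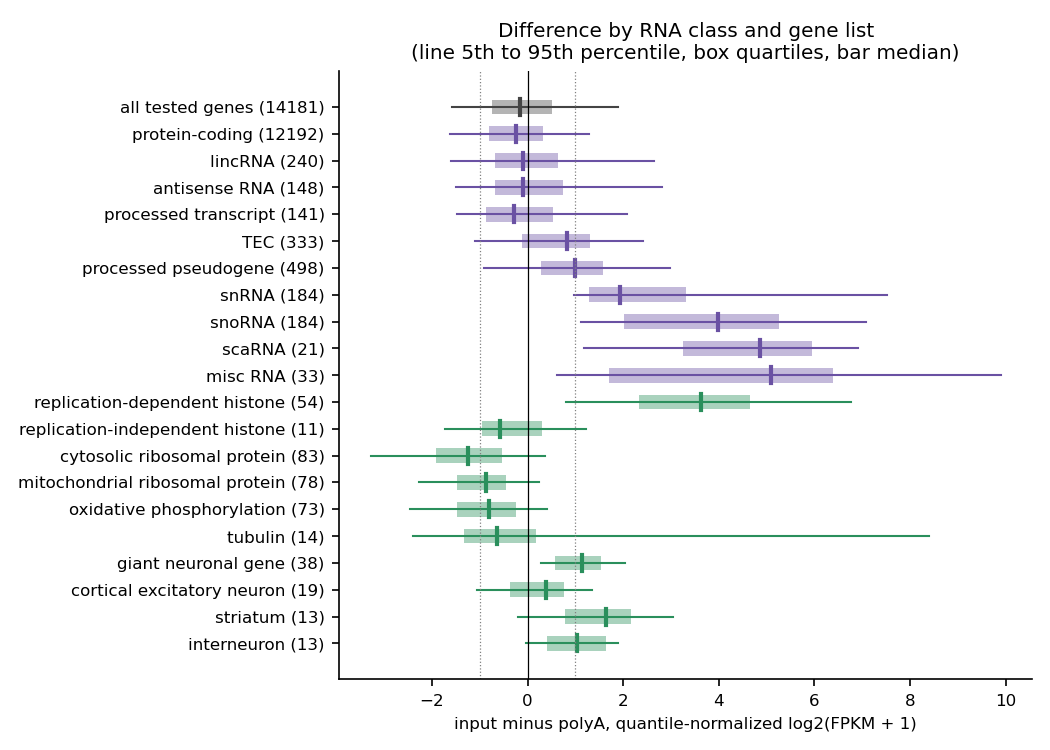
Input minus polyA (quantile-normalized log2(FPKM + 1)) for all tested genes, 10 RNA classes and 10 gene lists, with the number of tested genes in brackets. Lines run from the 5th to the 95th percentile, boxes between quartiles and bars mark medians. Small RNA classes and replication-dependent histones lie right of the dotted line at 1 for most members, and ribosomal protein genes lie to the left of 0.

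Of 12 genes often used as references, 4 were higher in polyA and 0 in input. Actb stood at 800.4, 918, 759 and 708 FPKM in polyA libraries and 813 and 779 FPKM in the inputs, and the groups overlapped. Gapdh stood at 302, 327, 265 and 250.0 against 102 and 81.6 FPKM (-1.23). Ppia, a cyclophilin, stood at 413, 409, 371 and 347 against 53.8 and 42.2 FPKM (-2.68). Hprt stood at 30.4, 28.4, 30.8 and 32.2 against 6.14 and 6.14 FPKM (-1.98), and Pgk1 at 38.2, 42.1, 36.7 and 34.7 against 7.03 and 7.09 FPKM (-2.07). These 4 are the ones counted, and the median of the 12 was -0.34. Of 13 heat shock chaperones, 2 were higher in input, Hsp90aa1 and Hsp90b1, and 2 in polyA, Dnaja1 and Hspe1. These are 15.4% each way, close to the 12.4% and 16.2% of all tested genes. Hsp90aa1 was not counted on the deposited values.

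Tubulins, the subunits of microtubules, were counted as higher in polyA or not at all, apart from 2 genes listed at 0 there. Of 14 tested genes, 6 were higher in polyA (median -0.65), among them Tubb2b at 1904, 2056, 1814 and 1781 against 651 and 619 FPKM (-2.23) and Tuba1b at 89.5, 104, 118 and 100.1 against 12.6 and 10.7 FPKM (-2.73). The 2 counted in the other direction, Tuba1a and Tubb3, were listed at 0 in every polyA library. Such a 0 can be a failed estimate, so no direction is read from these 2. On the deposited values and under median-ratio rescaling 5 and 4 tubulins were higher in polyA. Tubulin genes resemble each other closely, so reads can be split among them.

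Processed pseudogenes, intronless copies of messages, took 0.309% to 0.334% of the summed FPKM in polyA and 1.17% and 1.12% in the inputs. Of 8307 symbols, 622 had both inputs above all polyA libraries, 240 the reverse and 5079 were at 0 in all 6. Among the 3228 above 0 in some library these are 19.3% and 7.43%, against 20.9% and 29.2% of all 27654 such symbols. The share with both inputs above was thus close to that of all symbols, and the share with polyA above was lower. Of the 498 that passed the filter, 224 were higher in input, 18 in polyA and 256 were not counted. Of these 498, 326 had a polyA mean under 1 FPKM and so passed through the inputs, which bears on their direction. Counted copies named for ribosomal proteins were 23 and 1 of 49, and all others 201 and 17 of 449. On the deposited values 306 and 10 pseudogenes were counted, and under median-ratio rescaling 323 and 9. Loci of the TEC class, unspliced transcripts to be experimentally checked, had both inputs above for 860 and below for 151 of 2949 symbols. Of the 1964 TEC loci above 0 in some library these are 43.8% and 7.69%, against 20.9% and 29.2% of all such symbols. Of the 333 that passed the filter, 219 had a polyA mean under 1 FPKM, so most passed through the inputs, and 127 and 25 were counted. The counts were 188 and 4 on the deposited values and 199 and 2 under median-ratio rescaling.

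Markers of brain regions moved with the library type. Of 13 striatal genes, 9 were higher in input and 1, Ppp1r1b, in polyA (median 1.65), and the list summed to 87.0 to 106 FPKM in polyA and 265 and 276 FPKM in the inputs. Penk, which encodes proenkephalin, an opioid peptide precursor, stood at 2.13, 2.45, 2.38 and 3.03 against 40.8 and 35.3 FPKM (3.58). Rgs9, a regulator of G protein signalling rich in striatum, stood at 14.5, 13.7, 13.4 and 14.5 against 73.8 and 76.1 FPKM (2.67). Ppp1r1b, which encodes DARPP-32 of the same neurons, stood at 34.5, 36.0, 29.0 and 26.7 against 11.6 and 8.28 FPKM (-1.33). Of 7 tested hippocampal and thalamic genes, 4 were higher in input and 0 in polyA, with Tcf7l2, a thalamic factor, at 0.928, 0.889, 0.743 and 0.678 against 4.86 and 7.26 FPKM (1.79). Of these 7, 3 had a polyA mean under 1 FPKM, Tcf7l2 among them, as did 4 of the 13 striatal genes. Those genes passed the filter through the inputs, which bears on their direction. Of 13 interneuron genes, 7 were higher in input and 0 in polyA. In bulk tissue, more cells of a type and more RNA per cell cannot be told apart, and how far the wider dissection or the library type enters was not tested.

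The labelled tissue was present in both types. All 19 cortical excitatory neuron markers were above 1 FPKM in every library, and the list summed to 1272 to 1376 FPKM in polyA and 1163 and 1183 FPKM in the inputs. Neurod6, of postmitotic excitatory neurons, stood at 383, 376, 349 and 357 against 129.6 and 133 FPKM (-1.16). Bcl11b, of deep layer and striatal neurons, stood at 30.4, 25.7, 30.8 and 35.9 against 74.6 and 67.9 FPKM (1.55). By the rule 4 of the 19 were higher in input and 2 in polyA, or 2 and 2 on the deposited values. Of 15 progenitor genes, 3 were higher in input and 0 in polyA, with a median of 0.25 and 9 differences above 0. The proliferation marker Mki67 stood at 5.94, 5.82, 4.4 and 6.12 against 21.4 and 20.2 FPKM (1.94). Eomes had a difference of -0.89 and was not counted. Of 13 glial genes, 4 were higher in input and 1 in polyA, with a median of 0.07 and 9 differences above 0. The glutamate transporter Slc1a2 stood at 13.1, 10.7, 16.3 and 16.7 against 51.7 and 49.5 FPKM (2.09). Of 13 vessel genes, 4 were higher in polyA and 0 in input, a count of 1 on the deposited values and 0 under median-ratio rescaling. Microglial genes summed to 23.6 to 32.8 FPKM in polyA and 36.1 and 25.4 FPKM in the inputs. Choroid plexus genes summed to 5.61 to 6.67 against 11.2 and 3.94 FPKM, and Ttr, their defining transcript, was at 0 to 0.633 against 3.71 and 0.59 FPKM. Haemoglobin genes divided, Hba-a1 standing at 9.91, 12.6, 10.7 and 8.67 against 43.5 and 44.3 FPKM (2.24) and Hbb-bt at 6.54, 10.3, 8.92 and 10.1 against 1.61 and 4.09 FPKM (-1.62).

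Genes listed at 0 in all 4 polyA libraries and at 10 FPKM or more in both inputs numbered 178, 1.26% of those tested, while 0 genes were the reverse. They held 74 snoRNAs, 37 protein-coding genes, 33 snRNAs, 14 misc RNAs, 5 scaRNAs, 5 processed pseudogenes and 10 others. An exact 0 in these files can be a failed estimate, so no fold is given. Of the 37 protein-coding genes, 9 are replication-dependent histones and 24 lie on chromosome 8. Among the others are Tuba1a, the main alpha tubulin of young neurons, at 522 and 476 FPKM in the inputs, and Gm49450, whose annotated span overlaps it on chromosome 15, at 309 and 274 FPKM.

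The chromosome 8 genes form 1 unbroken stretch. From Usp10 to Galnt2, positions 119910360 to 124345724 of GRCm38 and 4.44 Mb long, all 74 protein-coding genes were listed at 0 in all 8 frontal cortex libraries, wild type and cKO alike. So were the 136 other annotated symbols there. In the inputs 54 of the 74 stood at 1 FPKM or more in both libraries, with a median of 9.75 FPKM. Tubb3, the neuronal beta tubulin, stood at 289 and 277 FPKM, Ankrd11, a chromatin regulator, at 115 and 112 FPKM, and Cox4i1 at 78.4 and 72.8 FPKM. Rpl13, the ribosomal protein gene counted above, stood at 28.4 and 32.3 FPKM. The AUTS2 RIP libraries also had values there, such as 354 and 283 FPKM for Tubb3. The flanking genes were measured in both types. Klhl36 stood at 2.48, 2.95, 3.26 and 2.76 FPKM in polyA and 3.89 and 1.65 FPKM in the inputs, and Pgbd5 at 11.7, 11.1, 9.32 and 9.23 against 11.6 and 7.39 FPKM. Elsewhere 22 of 10926 protein-coding genes at 1 FPKM or more in both inputs were at 0 in all 8 libraries. Calls that rest on this stretch, Tubb3, Cox4i1 and Rpl13 among them, therefore turn on values of 0 that neighbouring genes share. Without the stretch 1724 genes were higher in input and 2234 in polyA.

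**Figure D5:**
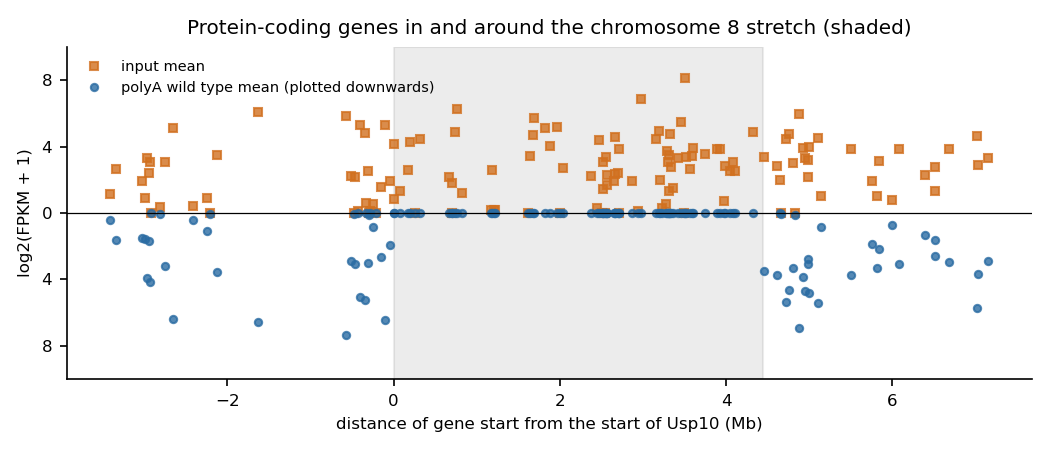
Mean level, log2(FPKM + 1), of protein-coding genes by distance (Mb) of the gene start from the start of Usp10 on chromosome 8, with inputs (squares) upwards and wild type polyA (circles) downwards. In the shaded 4.44 Mb all polyA points lie at 0 while input points range up to Tubb3, and on both sides of it most genes have values in both types.

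Libraries that the comparison did not use were then set against each other by the same rule: AUTS2 RIP, made with the SMARTer kit, against polyA libraries of the cKO. Here 2769 of 13688 genes (20.2%) were higher in RIP and 3048 (22.3%) in polyA. Of these, 1151 genes were higher in both input and RIP, 65.6% of the input list and 41.6% of the RIP list. Higher in both polyA groups were 1401 genes, 61.0% and 46.0% of the lists. The opposite direction was taken by 9 and 12 genes. RIP is a pull-down and shares its lysates with the inputs, so it is no independent measure of total RNA. Rn7s2 was an example of the difference between them, at 34.2 and 97.1 FPKM in RIP against 2167 and 2359 FPKM in the inputs, while Rn7sk stood at 2036 and 2163 FPKM in RIP.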

How the data were processed

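Deposited values were FPKM per GENCODE vM14 transcript, per the file headers. Per the submitters' processing notes the authors used STAR 2.5, SAMtools and Cuffdiff 2.2.1 with GRCm38.p4 (mm10). Whether the frontal cortex table and the table of RIP and input share a normalization is not stated, so their FPKM scales were treated as separate. Transcripts were summed per symbol and given classes, lengths and coordinates from GENCODE vM21. Of 128508 transcripts, 127975 matched and 533 did not. Symbols with a mean of the 2 group means of at least 1 FPKM were kept, a pseudocount of 1 was added, and log2 values were quantile-normalized over the 6 libraries. Genes were counted at a difference of 1 or more without overlap. No test was made. Depth is unknown, so no counting interval is given. Replicates are separate samples by their labels, and the median SD over genes was 0.117 (polyA) and 0.201 (input) on the log2 scale. The script was tested on simulated data.

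Named genes were the 10 largest differences in each direction among genes counted, reaching 5 FPKM on the higher side and above 0 in every library of the lower, without Gm, Rik and pseudogene symbols. To these came up to 4 members with the largest difference of each list and class, up to 8 genes at 0 in one type, and Auts2, Tubb3, Malat1, Xist, Actb and Gapdh. Other genes were named after their values were seen. The members and lists were chosen with earlier results of these data known. The IgG libraries were not used. Python 3.11.15, pandas 2.3.3, numpy 2.4.6 and matplotlib 3.10.9 were used.

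Some items are not reported here.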

Additional observations from a re-analysis of the deposited data

Results flagged for a closer look

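Of 102 named genes with at least 1 FPKM in some polyA library, 6 had 1 polyA library far from the other 3, with a gap to the nearest library above Dixon's critical value for 4 samples. Chance alone gives such a gap in about 1 of 20 groups. Xist stood at 216.6 FPKM in polyA library 2, against less than 1 FPKM in the others. Library 2 was also apart for Sp9, a factor of interneurons, at 2.089 FPKM, and for 6430590A07Rik at 0.8014 FPKM. Library 4 was apart for Cemip, a hyaluronan-binding protein, at 1.818 FPKM and for Tyrobp, a microglial adaptor, at 3.489 FPKM. Library 1 was apart for Jun, an immediate early gene, at 7.958 FPKM.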

How the results depend on the processing

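No paired analysis was possible because the polyA libraries are numbered and the inputs lettered, so they share no replicate number, and no test was made. Counts of genes higher in input and in polyA were 2050 and 2962 with a pseudocount of 0.1, 1004 and 856 with 5, 1161 and 1444 with a filter at 5 FPKM, 1881 and 2299 without a filter, 2271 and 1437 under median-ratio rescaling, 1308 and 1378 over protein-coding genes alone, 2695 and 3786 by rank, 641 and 234 at 4-fold, and 1649 and 1770 without genes at 0 in a whole group. Leaving out each library gave 1707 to 2152 and 2243 to 2758. The share of calls higher in input was 43.3%, 61.2% under median-ratio rescaling, 73.3% at 4-fold and 54.0% with a pseudocount of 5.

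Medians follow in the order giant neuronal genes, replication-dependent histones, lincRNA, processed pseudogenes, protein-coding genes, snRNA and snoRNA. They were 1.21, 5.86, -0.24, 1.66, -0.29, 2.83 and 6.42 with a pseudocount of 0.1 and 0.96, 1.95, -0.024, 0.38, -0.15, 0.96 and 2.12 with 5. Without genes at 0 they were 1.21, 3.70, 0.084, 1.11, -0.14, 2.34 and 4.61. With a filter at 5 FPKM the last 6 were 3.87, 0.24, 1.76, -0.16, 4.30 and 4.47, and under median-ratio rescaling 3.86, 0.34, 1.51, -0.055, 2.14 and 4.17. As deposited, the first 6 were 0.86, 3.68, 0.13, 1.36, -0.31 and 2.04. Ribosomal protein genes were at -1.59 as deposited and -1.16 without genes at 0. Leaving out each library gave 1.08 to 1.19, 3.54 to 3.79, -0.12 to -0.046, 0.95 to 1.182, -0.25 to -0.22, 1.85 to 3.01 and 3.91 to 4.48, and -1.28 to -1.19 for ribosomal protein genes.

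Changes of sign were sought among sets whose main median lay further from 0 than its SD between libraries. Besides lincRNA, antisense RNA changed sign, to 0.10 (filter at 5), 0.25 (as deposited), 0.44 (median ratio), 0.042 (without genes at 0) and 0.022 (without input replicate B). Processed transcripts went to 0.061 (filter at 5) and 0.16 (median ratio). Zfp genes went to 0.10 (filter at 5), 0.21 (median ratio) and 0.068 (without genes at 0). Microglial genes went to 0.13 (as deposited), 0.32 (median ratio), 0.0012 (without genes at 0) and 0.30 (without input replicate B, against -0.44 without A). Sets with a median nearer 0 also changed sign. The bidirectional promoter lncRNA class went from -0.044 to 0.18 (filter at 5), 0.24 (as deposited), 0.45 (median ratio) and 0.084 (without genes at 0). Glial genes went from 0.069 to -0.018 (as deposited). Other sets this near 0 are not listed. The cause was not tested.

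Transcripts of at most 500 bases had a median of 1.70 by longest transcript, 0.22 for protein-coding genes, 0.11 without those at 0 in polyA and 1.63 as deposited. Those of 1000 to 2000 bases had -0.54, -0.63, -0.63 and -0.56, and those above 8000 bases 0.59 by longest transcript and 0.45 as deposited. The last variant of protein-coding genes and leaving out the chromosome 8 stretch were chosen after seeing the data. All 157 counted named genes kept their direction in every setting in which their differences were computed. These were not computed by rank, at 4-fold, without a filter, over protein-coding genes alone or without the chromosome 8 stretch. The genes had been counted for differing by at least 1 without overlap in these data, so a change of direction was unlikely. Calls were lost on the deposited values for 7 (Abcb1a, Hsp90aa1, Kcnj8, Pcdhgb7, Ptprz1, Sox5 and Tek). Under median-ratio rescaling they were lost for 4 (Abcb1a, Esam, Kcnj8 and Tek). The depth of these libraries is unknown, so no limit from counting can be given.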
